A study of Mus musculus with 24 samples.

Results

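The genes described here code for voltage-gated sodium, calcium and pacemaker channel subunits: Scn4a, Scn4b, Scn7a, Cacna1c, Cacna1h, Cacnb2, Hcn2 and Hcn4. All array probes annotated to these 8 genes were taken, by the platform's symbol or by the gene name in the authors' summary table, which gave 20 of 45281 probes. Each of 24 Illumina arrays held RNA from the left ventricle of a different male mouse, and the strain background was mixed. There were 6 hearts in which EP4 was knocked out in the heart alone (KO) and the ejection fraction (EF) was low, 7 KO hearts with a high EF, and 11 wild-type controls (WT). EF is the share of blood the ventricle ejects per beat, and EP4, encoded by Ptger4, is a receptor for prostaglandin E. KO low EF hearts had an EF of 24.8 ± 6.96% (SD, n = 6), KO high EF hearts one of 56.8 ± 10.4% (SD, n = 7), and WT hearts one of 79.5 ± 4.66% (SD, n = 11). The mice were 27 to 33.5 weeks old. No source used here names the promoter that drove the recombinase or says whether WT mice carried it. The 2 KO groups were cut from 1 set of EF values, so their EF is a description of how they were formed.

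Voltage-gated sodium channels carry the fast inward current that starts the ventricular action potential, with a pore-forming alpha subunit and small beta subunits that adjust its gating. L-type calcium channels then admit the calcium that triggers contraction, and their beta subunits bring the pore to the membrane and tune its opening. T-type calcium channels and the hyperpolarization-activated channels of the HCN family serve pacemaking in the sinus node, are abundant in the embryonic ventricle, and are known to be re-expressed in failing ventricles of several species.

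Promoter stretches of 4 of the genes with results below are shown. Scn4b had the largest difference between KO low EF and WT hearts. The first Cacnb2 probe and the Hcn2 and Scn7a probes did not pass that test with all arrays in the fit. They passed once KO high EF replicate 11 was left out, as did Cacnb2 probe 4. The stretches of Cacna1c, which was also called, are not shown. Each is the 250 bases before an annotated start, from RefSeq on GRCm38.p6, written 5′ to 3′ on the gene's strand. Capitals mark matches to the motifs searched on both strands.
Scn4b (chr9:45138374-45138623, plus strand): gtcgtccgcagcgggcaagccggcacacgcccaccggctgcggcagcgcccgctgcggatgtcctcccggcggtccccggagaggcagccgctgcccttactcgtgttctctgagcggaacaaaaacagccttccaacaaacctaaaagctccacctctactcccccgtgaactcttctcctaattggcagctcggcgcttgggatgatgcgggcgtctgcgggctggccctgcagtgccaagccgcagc
Hcn2 (chr10:79716384-79716633, plus strand): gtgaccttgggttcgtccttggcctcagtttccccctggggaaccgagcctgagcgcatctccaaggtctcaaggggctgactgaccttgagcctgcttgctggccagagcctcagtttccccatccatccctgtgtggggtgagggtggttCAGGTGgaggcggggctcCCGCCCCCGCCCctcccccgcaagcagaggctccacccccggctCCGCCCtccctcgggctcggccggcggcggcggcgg
Cacnb2, downstream start (chr2:14823842-14824091, plus strand): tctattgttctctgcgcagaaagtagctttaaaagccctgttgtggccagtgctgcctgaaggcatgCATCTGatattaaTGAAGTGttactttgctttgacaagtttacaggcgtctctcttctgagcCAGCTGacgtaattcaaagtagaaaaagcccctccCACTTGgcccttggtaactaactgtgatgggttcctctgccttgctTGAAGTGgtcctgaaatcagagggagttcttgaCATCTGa
Scn7a (chr2:66784911-66785160, minus strand): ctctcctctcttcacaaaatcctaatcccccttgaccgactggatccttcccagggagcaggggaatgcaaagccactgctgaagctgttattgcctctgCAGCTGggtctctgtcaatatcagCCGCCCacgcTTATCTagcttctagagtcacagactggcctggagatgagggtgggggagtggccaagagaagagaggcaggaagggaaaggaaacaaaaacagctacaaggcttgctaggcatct
The Scn4b stretch held no match to any of the 10 motifs. The Hcn2 stretch held 3 GC boxes (GGGCGG) and 1 E-box (CANNTG). The downstream Cacnb2 stretch held 2 matches to the NKX2-5 letters TNAAGTG, at -170 to -164 and -40 to -34 from the start, and 4 E-boxes. The stretch before the upstream Cacnb2 start, not shown, held 1 GC box, 1 E-box and no NKX2-5 match. Which start the Cacnb2 probes read from is not known here. The Scn7a stretch held 1 GC box, 1 GATA match (AGATAA) and 1 E-box. Among 32851 RefSeq promoter stretches of this length, 32.7% held a GC box, 66.2% an E-box, 10.1% the NKX2-5 letters and 9.99% the GATA letters. The other motifs were the TATA box (TATAAA, 12.4%), the T-box letters (AGGTGTGA, 1.12%), the MEF2 site (0.508%), the CArG box (1.47%) and the left part (TTCAGCACC, 0.301%) and right part (0.0974%) of the REST element, and they matched in none of the 10 stretches found for 7 of the 8 genes. GC boxes can share bases with each other and with E-boxes, and a match describes letters, not a bound site. Cacna1h is named only.

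The arrays' median raw intensity ran from 106 to 155. KO high EF replicate 11 stood apart, with a median r of 0.778 to the rest where the other 23 arrays had 0.968 to 0.986, so results are also given without it. Atrial markers split the arrays further. Myl7, the atrial regulatory light chain, lay at 6.45 to 7.00 in KO low EF hearts, at 6.41 to 6.63 in 6 KO high EF hearts, at 10.23 in KO high EF replicate 11, at 9.82 to 12.52 in 4 WT hearts (replicates 8 to 11) and at 5.93 to 6.61 in the other 7 WT hearts, on the log2 scale. Sln and Myl4, further atrial genes, were high in the same 4 WT hearts (9.28 to 12.66 and 11.60 to 14.15), while replicate 11 had high Myl4 (11.59) and low Sln (5.83). The part of these hearts in the results is shown by fits without them. Ventricular cardiomyocyte markers were near the top of the scale in all groups, with a mean over 5 tested genes of 15.35 to 15.44 in KO low EF, 15.38 to 15.49 in KO high EF and 15.39 to 15.60 in WT hearts. The kept Ptger4 probe was near the array median of 6.77: KO low EF hearts averaged 6.85 ± 0.15 (SD, n = 6), KO high EF hearts 7.10 ± 0.48 (SD, n = 7) and WT hearts 6.90 ± 0.13 (SD, n = 11). Whether it lies inside the deleted stretch is unknown, so it checks no label. In bulk tissue, fewer cells of a type and less RNA per cell cannot be told apart.

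Values below are background-corrected, quantile-normalized intensities on the log2 scale, and probes of a gene are numbered from the brightest. Probes that exceeded their array's median on at least 6 arrays were tested, 16 of the 20, and each of these did so on at least 21 arrays. Groups were compared with limma, with Benjamini-Hochberg adjustment over all 25425 kept probes and a threshold of 0.05. In KO low EF against WT, 6 of the 16 member probes, from 4 genes, were lower and 0 were higher, beside 24.4% of all kept probes called in either direction, 12.3% lower and 12.1% higher. The 16 probes had a median difference of -0.40, against -0.0071 over all kept probes, and 13 of the 16 differences were below 0. These probes came from 7 genes, so a gene with several probes was counted more than once. The members were also chosen with earlier results of these data known, so these counts are a description. Without KO high EF replicate 11, 10 of the 16 were called, 9 lower and 1 higher, beside 33.8% of all kept probes, 17.3% lower and 16.5% higher. With the 4 WT hearts of high atrial markers left out, 5 were called, all lower, beside 21.6% of all kept probes and 10.9% lower, and with replicate 11 left out as well, 9 were called, beside 31.9%. In KO high EF against WT, 1 of 16 was called, as lower, beside 14.4% and 5.9% lower, and the median difference was -0.20. Without replicate 11 the count was 3, beside 19%, and without the 4 WT hearts as well it was 2, beside 16.8%. In KO low EF against KO high EF, 1 of 16 was called, as lower, beside 2.92% and 1.99% lower.

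**Figure D1:**
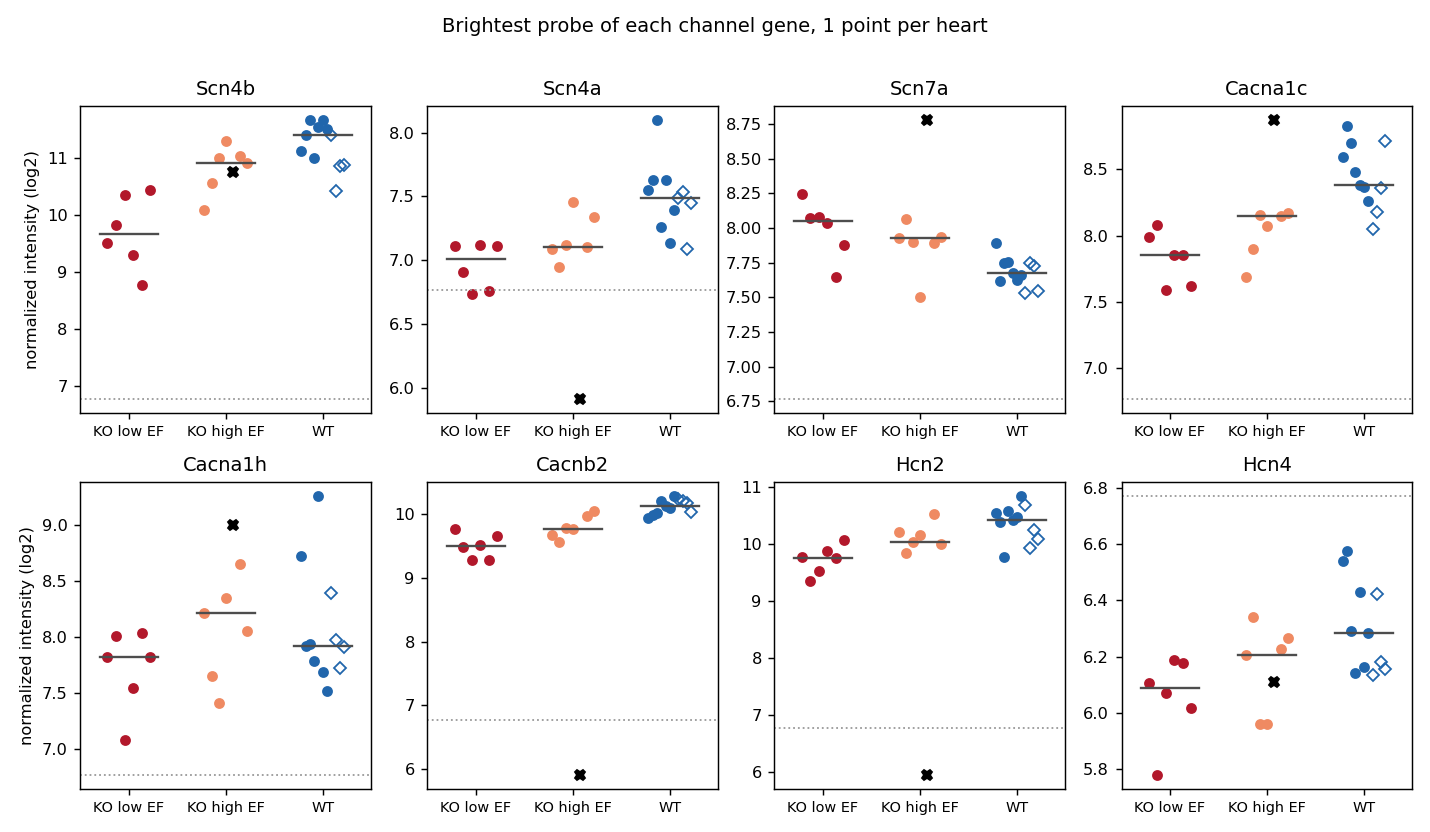
Normalized intensity (log2) of the brightest probe of each of the 8 genes, 1 point per heart, in KO low EF, KO high EF and WT hearts. The horizontal bars are group medians, the dotted line is the array median of 6.77, the black cross is KO high EF replicate 11 and open diamonds are the 4 WT hearts with high atrial markers. Hcn4 lies below the array median in every heart, and replicate 11 lies far below the other hearts for Cacnb2, Hcn2 and Scn4a.

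Scn4b, a beta subunit that shapes the resurgent and late parts of the sodium current, differed most. In KO low EF hearts its brightest probe measured 9.51, 9.82, 10.36, 9.29, 8.78 and 10.45 in replicates 1 to 6. In KO high EF hearts it measured 10.08, 10.56, 11.01, 11.31, 10.76, 11.05 and 10.93 in replicates 7 to 13, and in WT hearts it ran from 10.43 to 11.68 with a median of 11.41. The KO low EF hearts were the lowest group, and only the highest of them, at 10.45, lay above the lowest WT heart. That heart was WT replicate 9, 1 of the 4 with high atrial markers, and the 7 WT hearts without high atrial markers ran from 11.00 to 11.68.

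The probe was 2.89-fold lower in KO low EF than in WT hearts (-1.53 ± 0.22, standard error, limma adjusted p = 9.39e-06). Within the 3 array label prefixes that held both groups the difference ran from -2.30 to -1.13. Prefix 006 held 1 KO low EF and 4 WT hearts, 046 held 2 and 3, and 055 held 3 and 1. Without the 4 WT hearts of high atrial markers the difference was -1.71 ± 0.23 (limma adjusted p = 1.42e-05). KO low EF hearts were also below KO high EF hearts (-1.11 ± 0.25, limma adjusted p = 0.0147), the single member call between the KO groups. The call was lost with scaling to the median in place of quantile normalization (-0.91, adjusted p = 0.195), and within the prefix 046, with 2 KO low EF hearts against 1 KO high EF heart, the difference was 0.32. KO high EF hearts were -0.42 ± 0.21 from WT (adjusted p = 0.215).

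The dimmer Scn4b probe, which the authors' deposited table lists under a locus name (LOC384934), measured 7.11 to 7.53 in KO low EF, 7.09 to 8.37 in KO high EF and 7.44 to 7.98 in WT hearts. The KO low EF hearts overlapped both other groups. It was lower in KO low EF than in WT hearts (-0.44 ± 0.12, limma adjusted p = 0.00914). Against KO high EF hearts the difference was -0.37 ± 0.14 (adjusted p = 0.164), which passed without KO high EF replicate 7 (adjusted p = 0.0415) and in none of the other fits with 1 heart left out. The gap between the 2 probes was 2.42 ± 0.67 (SD, n = 6) in KO low EF hearts and 3.51 ± 0.30 (SD, n = 11) in WT hearts. The difference was -1.09 (two-sided exact permutation p = 0.00162 over 12376 assignments, 0.00242 after adjustment over the 3 genes tested this way). Over 24 arrays the dimmer probe averaged 7.59 and the brightest 10.73, and the part of this dimness in the gap was not tested.

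Scn4a, the alpha subunit of skeletal muscle, was dim. Its 1 probe measured 7.12, 6.91, 6.74, 7.12, 6.76 and 7.12 in KO low EF replicates 1 to 6. It ran from 6.95 to 7.45 in 6 KO high EF hearts, was 5.92 in replicate 11, and ran from 7.09 to 8.10 in WT hearts with a median of 7.48. Of the KO low EF hearts, 3 reached just into the WT range. KO low EF hearts were lower than WT hearts (-0.52 ± 0.17, limma adjusted p = 0.0221), also without replicate 11 (-0.53 ± 0.12, adjusted p = 0.000585). The call was lost when KO low EF replicate 3 (adjusted p = 0.0596) or 5 (adjusted p = 0.0581) was left out, and under median scaling (adjusted p = 0.131). It was the single member called in KO high EF against WT (-0.48 ± 0.16, limma adjusted p = 0.0407), and that call was lost without replicate 11 (-0.31 ± 0.12, adjusted p = 0.0606), without KO high EF replicate 7, 8 or 12, and without WT replicate 1, 2, 3, 5, 8, 9 or 11, with adjusted p of at most 0.0693. Of 12 marker genes of skeletal muscle, 7 were tested in KO low EF against WT. Of these, 1 was higher and 1 lower, beside 2082 higher and 1844 lower of 13683 genes. The mean of the 7 lay at 7.49 to 7.75 in KO low EF, 7.58 to 8.25 in KO high EF and 7.59 to 7.75 in WT hearts.

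Scn7a codes for an atypical sodium channel that is gated by sodium concentration in sensory and glial cells of the mouse. Its 1 probe measured 7.64 to 8.25 in KO low EF hearts, 7.50 to 8.78 in KO high EF hearts (8.78 in replicate 11) and 7.53 to 7.89 in WT hearts. Of the 6 KO low EF hearts, 4 lay above every WT heart. KO low EF hearts were 0.31 ± 0.12 from WT (limma adjusted p = 0.0645), and KO high EF hearts 0.32 ± 0.11 (adjusted p = 0.0661). Without replicate 11 the KO high EF difference was 0.19 ± 0.08 (adjusted p = 0.123). KO low EF hearts were higher without replicate 11 (0.31 ± 0.08, adjusted p = 0.00423), under median scaling (0.44 ± 0.11, adjusted p = 0.00527) and with the array label prefix as a block (0.42 ± 0.13, adjusted p = 0.0214). With the 4 WT hearts left out and replicate 11 kept the difference was 0.28 ± 0.14 (adjusted p = 0.19). Of 5 tested Schwann cell and glia markers, 1 was higher in KO low EF than in WT hearts (Pmp22, also made by fibroblasts, by 1.26 ± 0.09) and 1 lower (Mbp, a myelin protein, by -0.43 ± 0.13). Over all 13683 genes, 2082 were higher and 1844 lower. The mean of the 5 markers lay at 8.08 to 8.34 in KO low EF, 8.14 to 8.73 in KO high EF and 7.80 to 8.33 in WT hearts. Fibroblast markers were higher for 7 of 8 genes, against the same 2082 of 13683. Their means were 11.81 to 12.28, 11.52 to 12.11 and 10.78 to 11.15 in KO low EF, KO high EF and WT hearts. In the same order, means of 6 tested macrophage markers were 10.66 to 10.89, 10.33 to 10.95 and 9.45 to 9.84. Those of 5 smooth muscle markers were 11.17 to 11.48, 10.96 to 11.39 and 10.57 to 11.16. Those of 6 endothelial markers were 10.03 to 10.28, 8.68 to 10.25 and 10.10 to 10.39. The part of any of these cells in the Scn7a values was not tested.

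Cacna1c codes for the pore of the cardiac L-type calcium channel and had 7 probes, which did not move together. Its brightest measured 7.99, 8.08, 7.59, 7.85, 7.85 and 7.62 in KO low EF replicates 1 to 6. It ran from 7.69 to 8.17 in 6 KO high EF hearts, reached 8.87 in replicate 11, and ran from 8.05 to 8.83 in WT hearts with a median of 8.38. The KO low EF and WT hearts met only at 8.05 to 8.08, where the lowest WT heart was replicate 8, 1 of the 4 with high atrial markers.

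This probe was 1.53-fold lower in KO low EF than in WT hearts (-0.62 ± 0.14, limma adjusted p = 0.00106). The difference was -0.73 to -0.39 within the 3 prefixes, and -0.68 ± 0.14 without the 4 WT hearts (adjusted p = 0.00143). In KO high EF hearts the difference from WT was -0.30 ± 0.13 (adjusted p = 0.126), and without replicate 11 they were lower (-0.43 ± 0.11, limma adjusted p = 0.00474). The other 5 tested Cacna1c probes differed from WT by -0.24 to 0.22 in KO low EF hearts and none was called, with adjusted p of 0.253 to 0.996. The gap between the brightest probe and the mean of these 5 was 0.48 ± 0.11 (SD, n = 6) in KO low EF and 1.09 ± 0.25 (SD, n = 11) in WT hearts, a difference of -0.61 (two-sided exact permutation p = 0.000162, 0.000485 after adjustment over 3 genes). The brightest probe and the others thus changed unequally on the log2 scale. The 5 others were dimmer, with means over 24 arrays of 7.13 to 7.50, against 8.20 for the brightest and an array median of 6.77. The part of their dimness in this gap was not tested. Which transcripts each probe reads is not known here. The last of the 7 probes was below the array median on all 24 arrays.

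**Figure D2:**
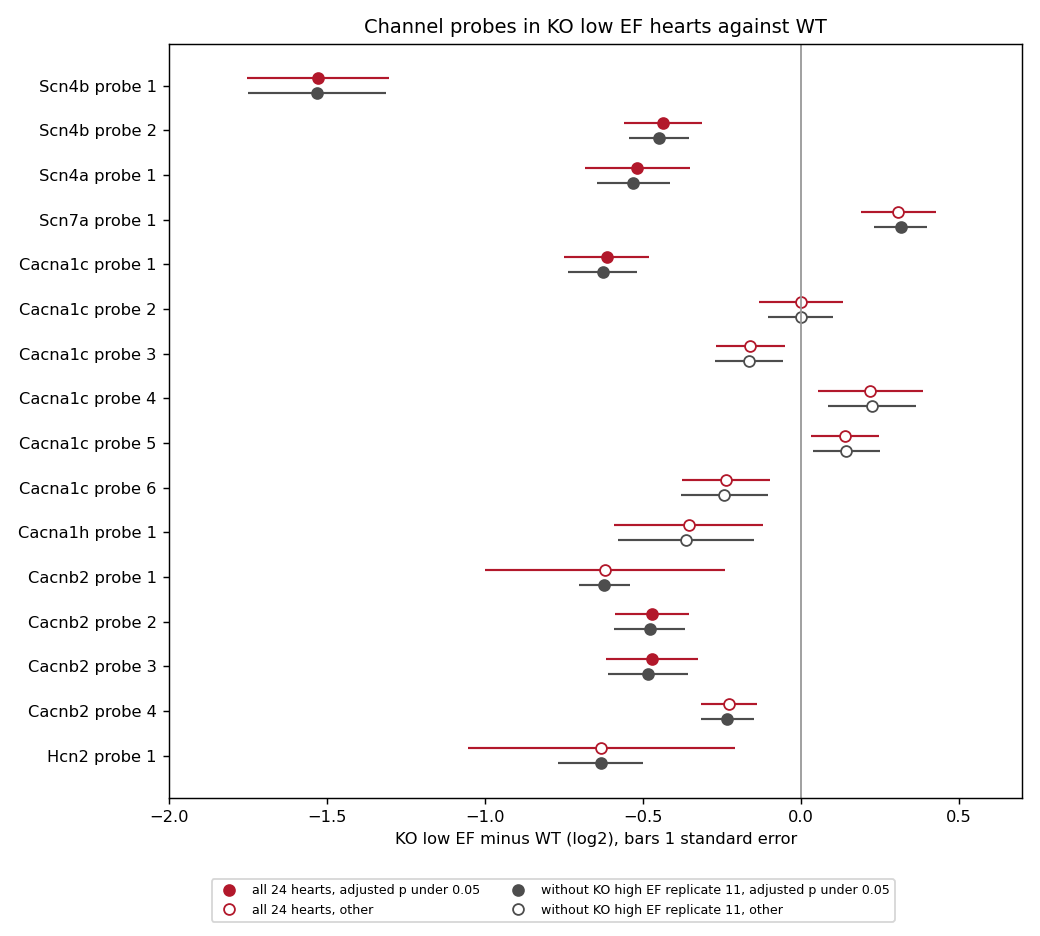
Difference of KO low EF minus WT hearts (log2, bars 1 standard error) for the 16 tested probes, with all 24 hearts (red) and without KO high EF replicate 11 (grey). Filled points had an adjusted p under 0.05. The brightest Scn4b probe lies at -1.53, the brightest Cacna1c probe at -0.62 apart from the other Cacna1c probes, and for Cacnb2 probe 1 and Hcn2 the bars are much shorter without replicate 11.

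Cacnb2 codes for the main beta subunit of the cardiac L-type channel. Its brightest probe measured 9.78, 9.49, 9.28, 9.52, 9.28 and 9.66 in KO low EF replicates 1 to 6. It ran from 9.57 to 10.05 in 6 KO high EF hearts and was 5.91 in replicate 11, below the array median, and it ran from 9.94 to 10.29 in WT hearts with a median of 10.12. Every KO low EF heart lay below every WT heart. It was the single member probe, 1 of 16, whose groups did not overlap in this comparison, against 12.3% of all kept probes in either direction and 6.16% lower.

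Because all groups shared 1 estimate of the spread, replicate 11 set the test: the difference was -0.62 ± 0.38 with it (limma adjusted p = 0.286) and -0.62 ± 0.08 without it (adjusted p = 7.64e-07). Without it KO high EF hearts were also lower than WT (-0.32 ± 0.08, limma adjusted p = 0.00644). Cacnb2 probe 2 was lower in KO low EF than in WT hearts (-0.47 ± 0.12, limma adjusted p = 0.00357), and so was probe 3 (-0.47 ± 0.14, adjusted p = 0.0166). Probe 4 was -0.23 ± 0.09 from WT (adjusted p = 0.0672). It passed without replicate 11 (-0.23 ± 0.08, limma adjusted p = 0.0331) and with the array label prefix as a block (-0.31 ± 0.09, adjusted p = 0.0148). It did not pass without the 4 WT hearts of high atrial markers (adjusted p = 0.147), nor with replicate 11 left out as well (adjusted p = 0.075). All 4 probes of this gene had differences below 0. The call of probe 3 was lost with the array label prefix as a block (adjusted p = 0.0716) and without the 4 WT hearts of high atrial markers (-0.36, adjusted p = 0.13), and that of probe 2 with median scaling (-0.34, adjusted p = 0.135). The gap between the brightest probe and the mean of the other 3 was 1.97 ± 0.21 (SD, n = 6) in KO low EF and 2.20 ± 0.15 (SD, n = 11) in WT hearts (difference -0.23, two-sided exact permutation p = 0.0226, also 0.0226 after adjustment). Over 24 arrays the other 3 averaged 7.39 to 8.37 and the brightest 9.71, and the part of this dimness in the gap was not tested.

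Cacna1h codes for the pore of a T-type calcium channel. Its tested probe measured 7.08 to 8.04 in KO low EF hearts (median 7.82), 7.41 to 9.00 in KO high EF hearts (median 8.22) and 7.52 to 9.26 in WT hearts (median 7.92). The groups overlapped widely. No difference passed: -0.36 ± 0.24 for KO low EF against WT (limma adjusted p = 0.333) and 0.12 ± 0.22 for KO high EF against WT (adjusted p = 0.783). Without replicate 11 the KO high EF value was -0.02 ± 0.22 (adjusted p = 0.97), and with the prefix as a block it was also -0.02 (adjusted p = 0.959). Its other 2 probes, 1 of them listed under the gene name TPSG1 in the authors' deposited table, were at or below 6.88 on every array.

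Hcn2 and Hcn4 code for hyperpolarization-activated channels of the pacemaker current, Hcn4 being the main form of the sinus node and Hcn2 the main form of the mouse ventricle. Hcn2 measured 9.77, 9.35, 9.52, 9.87, 9.74 and 10.07 in KO low EF replicates 1 to 6. It ran from 9.83 to 10.53 in 6 KO high EF hearts, was 5.94 in replicate 11, and ran from 9.77 to 10.83 in WT hearts with a median of 10.41. Of the 6 KO low EF hearts, 4 lay below the lowest WT heart, and the others inside the WT range.

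The Hcn2 difference of KO low EF from WT was -0.63 ± 0.42 with all hearts (limma adjusted p = 0.338), and without replicate 11 KO low EF hearts were lower (-0.63 ± 0.13, adjusted p = 0.000453). It ran from -0.85 to -0.37 within the 3 prefixes, and was -0.70 without the 4 WT hearts and replicate 11 (adjusted p = 0.000413). KO high EF hearts without replicate 11 were -0.23 ± 0.13 from WT (adjusted p = 0.273). Hcn4's 1 probe was below the array median of 6.77 on all 24 arrays: 5.78 to 6.19 in KO low EF, 5.96 to 6.34 in KO high EF and 6.13 to 6.57 in WT hearts. It therefore stayed out of the tests. With no filter its difference was -0.25 ± 0.08 in KO low EF against WT (limma adjusted p = 0.0503) and -0.15 ± 0.08 in KO high EF against WT (adjusted p = 0.34). Of 9 tested markers of the sinus node and conduction tissue, 1 was higher and 1 lower in KO low EF than in WT hearts. Over all 13683 genes, 2082 were higher and 1844 lower.

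Within the 13 KO hearts the members' levels were set against EF as a continuous measure, which is not independent of the comparison of the KO groups. The array label prefix 058 held the 3 KO hearts of highest EF (60.2 to 76.4%) and no KO low EF heart. Prefix and EF thus partly went together. No member probe passed in limma with Benjamini-Hochberg adjustment, 4 of 16 had an unadjusted p under the threshold, and 1.99% of all kept probes were called. Scn4b had the steepest slope, 0.31 ± 0.07 log2 units per 10 EF points (adjusted p = 0.0529), and 0.31 ± 0.07 without replicate 11 (adjusted p = 0.0172, beside 5.63% called). The slope was 0.37 ± 0.12 with the array label prefix as a block (adjusted p = 0.365), 0.25 ± 0.09 under median scaling (adjusted p = 0.411) and 0.38 ± 0.11 without the 2 hearts farthest from the median EF (adjusted p = 0.132). Inside the groups it was 0.10 ± 0.30 among KO low EF and 0.17 ± 0.14 among KO high EF hearts, and 0.15 ± 0.16 with the EF group as a block. None of those 3 passed. Without replicate 11, Cacnb2 probe 1 had a slope of 0.09 ± 0.03 (adjusted p = 0.0556) and Hcn2 one of 0.12 ± 0.04 (adjusted p = 0.066), neither past the threshold.

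**Figure D3:**
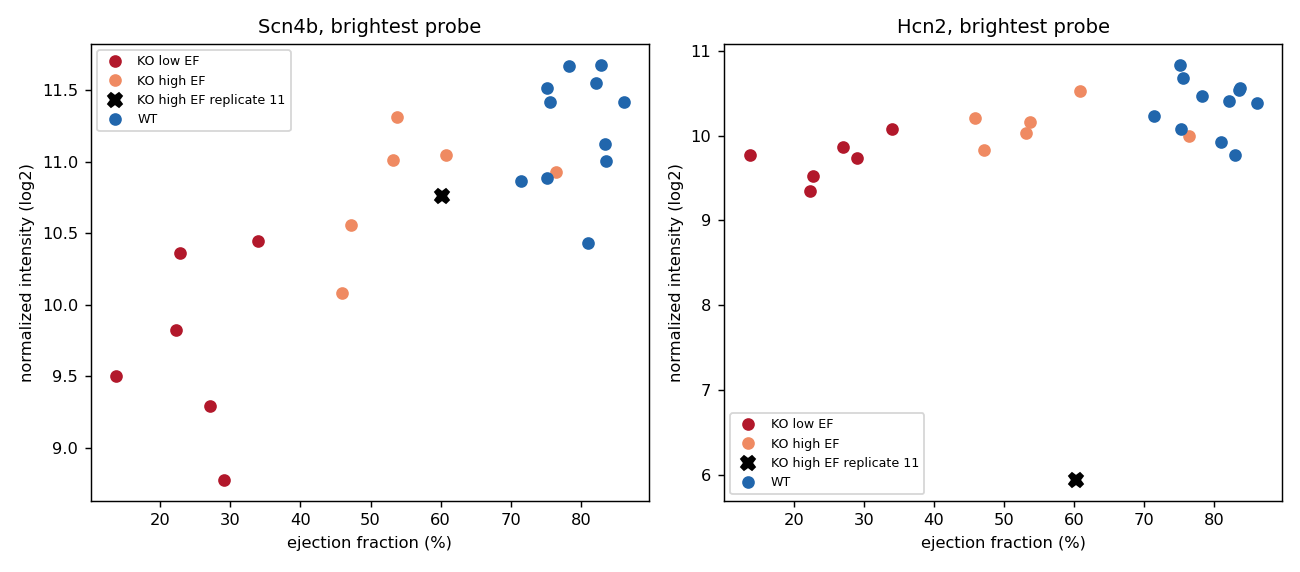
Normalized intensity (log2) of the brightest Scn4b and Hcn2 probes against ejection fraction (%), 1 point per heart, in KO low EF (red), KO high EF (orange; replicate 11 a black cross) and WT hearts (blue). For Scn4b the 6 KO low EF hearts lie at 8.78 to 10.45 and the 7 KO high EF hearts at 10.08 to 11.31; for Hcn2 replicate 11 lies at 5.94, far below all other hearts.

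The other sodium channel subunits did not pass in KO low EF or KO high EF against WT: 7 of 12 were tested and 0 were called, with a median difference of 0.01 in KO low EF hearts, against 0.005 over all 13683 genes. An unadjusted limma p under the threshold was found for 0 of these 7 in KO low EF hearts, and for 2 of them in KO high EF hearts. Of 12 tested calcium channel subunits outside the members, 1 was higher and 4 were lower in KO low EF than in WT hearts, with a median of -0.08, beside 2082 higher and 1844 lower of 13683 genes. The lower ones were Cacna1s, the pore of the skeletal muscle L-type channel (-1.60 ± 0.13), the auxiliary subunits Cacna2d2 (-0.59 ± 0.17) and Cacna2d1 (-0.41 ± 0.14), and 1 more auxiliary subunit, and the higher one was the beta subunit Cacnb1 (0.40 ± 0.13). In KO high EF against WT 3 were lower and 0 higher, beside 901 lower and 1475 higher of 13683 genes. These 3 were Cacna1s (-1.12 ± 0.13), Cacna2d2 (-0.54 ± 0.16) and the T-type pore Cacna1g (-0.32 ± 0.11). Without the 4 WT hearts of high atrial markers, 1 of the 12 was called in each of these comparisons, as a lower gene. Over all genes, 1581 of 13411 were then lower for KO low EF against WT, and 636 of 13411 for KO high EF against WT. Most of the calls above, with that of Cacnb1, were thus lost, and the gene that stayed is not named here. Whether atrial tissue or the smaller number of WT hearts caused the loss was not tested. None of 4 tested partners of the pacemaker channels, Hcn3, Kcne2, Kctd3 and Cav3, was called in any comparison.

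Of 14 tested regulators of sodium and calcium channels, 2 were higher and 3 lower in KO low EF than in WT hearts, with a median of 0.03, again beside 2082 higher and 1844 lower of 13683 genes. The lower ones were Ank2, the ankyrin that anchors channels and exchangers (-0.65 ± 0.10, limma adjusted p = 1.61e-05), Fgf13, which binds the tail of sodium channels (-0.78 ± 0.17), and Rangrf, which takes part in the transport of sodium channels to the membrane (-0.35 ± 0.11). The higher ones were Ahnak, a scaffold that binds the calcium channel beta subunit (0.31 ± 0.07), and Sorbs2, an adaptor protein of the cytoskeleton (0.39 ± 0.13, adjusted p = 0.0288). Ank2 was the one also lower in KO low EF than in KO high EF hearts (-0.45 ± 0.11, limma adjusted p = 0.0224), and its level rose with EF among KO hearts (0.14 ± 0.03 per 10 points, adjusted p = 0.038). The slope call was lost with the array label prefix or the EF group as a block and under median scaling, where 0 of 25425 probes were called.

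**Figure D4:**
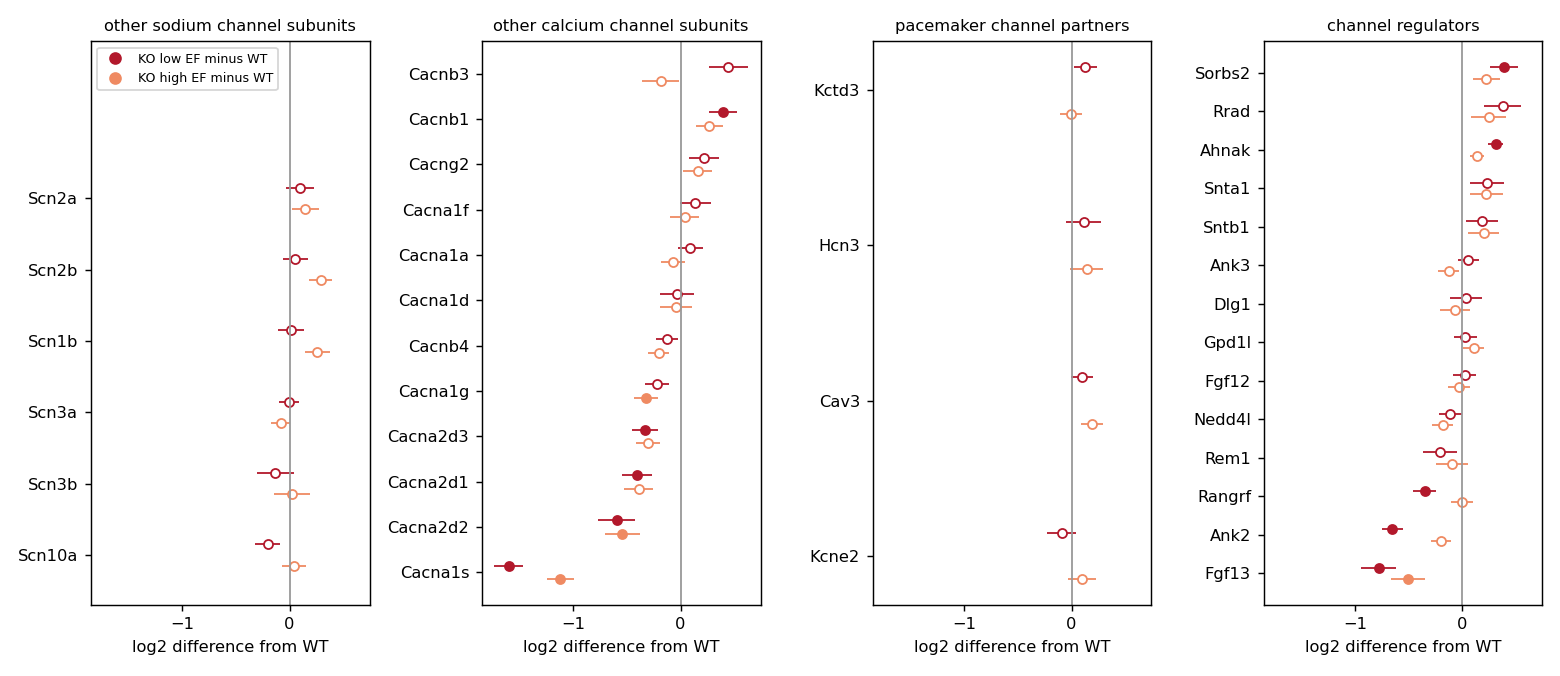
Difference from WT (log2, bars 1 standard error) in KO low EF (red) and KO high EF hearts (orange) for tested sodium and calcium channel subunits outside the members, pacemaker channel partners and channel regulators, on each gene's brightest kept probe. Filled points had an adjusted p under 0.05. Cacna1s lies lowest in both KO groups, at -1.60 and -1.12, and the sodium channel subunits shown have open points.

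By Pearson correlation of normalized values over 23 arrays without replicate 11, the genes most like Scn4b were Mid1ip1 (r = 0.88), Ttc19 (0.88) and Tcaim (0.87), and within groups these were 0.68, 0.63 and 0.65. Those most like Cacna1c were Prickle1 (0.91), Synj2 (0.91) and Tfdp2 (0.90), and those most like Cacnb2 were Slc25a11 (0.93), Asb14 (0.93) and Mtfp1 (0.92). For Hcn2 they were Mavs (0.86), Cyth1 (0.86) and Plxnb1 (0.83), and for Scn4a they were Ash2l (0.88), Zadh2 (0.87) and Cobll1 (0.86). For Scn7a they were Maml2 (0.87), Tulp4 (0.85) and Postn (0.84), a matrix protein of fibroblasts. Cacna1h had the loosest likeness among the members, with 4631405J19Rik (0.76), Btbd9 (0.73) and Grb2 (0.73). These values share the group differences and the arrays, and they are a description.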

How the data were processed

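The authors deposited unnormalized fluorescence intensity on a linear scale for 45281 probes and 24 arrays, and a normalized table whose values are on a log2 scale. The authors' deposited summary holds log2 group means, group SDs and a p-value per probe, whose test is not stated in its header. Per the submitters' processing notes, BeadStudio and R 2.8.0 were used. Background correction (normexp with an offset of 50) was followed by log2 and quantile normalization of the intensities, in R 4.3.3 with limma 3.58.1 and the data.table package (1.17.8). Probes above their array's median on at least 6 arrays were kept (25425). Tests were two-sided (lmFit and eBayes): 3 group means over 24 hearts, and a slope on EF over 13 KO hearts, with Benjamini-Hochberg adjustment at 0.05. The procedure was tested on simulated data. Exact permutation tests used scipy 1.17.1. The number of arrays limits the precision.

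Summary rows were joined to probes by group means and SDs within 1e-05, and 1 member probe (Scn4a) was named only that way. The main probe of a gene is its brightest kept one. Named genes are the members, up to 4 genes per list and comparison with the smallest p, and the 3 genes with the highest correlation. The members and gene lists were chosen with earlier results of these data known. The fits without 4 WT hearts with high atrial markers (Myl7 above 9) were chosen after seeing the data. Hearts are separate animals per the labels. One listed gene is counted but not reported here by name or plotted.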

Additional observations from a re-analysis of the deposited data

Results flagged for a closer look

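The values of each tested probe in each KO group were tested for a heart far from the rest of its group. WT hearts were not tested this way. Among these 32 sets of values 5 had such a heart, where chance gives about 5 percent. Of these, 4 were in KO high EF replicate 11, the array that stood apart over all probes, so the sets are not independent. There the brightest Cacnb2 probe measured 5.91, against 9.57 for the next lowest heart of that group, and Hcn2 measured 5.94, against 9.83. Scn4a measured 5.92 there, against 6.95 for the next lowest, and the brightest Cacna1c probe measured 8.87, against 8.17 for the next highest. The remaining one was Cacnb2 probe 3 in KO low EF replicate 5, at 7.61, against 7.25 for the next highest KO low EF heart.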

How the results depend on the processing

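In KO low EF against WT, 6 member probes were called, beside 24.4% of all kept probes. With array weights 10 were called, beside 35.1%. With the array label prefix as a block and KO high EF replicate 11 left out 10 were called, beside 30.7%. Leaving out 1 heart at a time gave 5 (without KO low EF replicate 3, beside 22.2%) to 10 (without KO high EF replicate 11, beside 33.8%). In KO high EF against WT, 1 was called, beside 14.4% of all kept probes. The count was 0 with median scaling (beside 6.73%), no filter (7.08%) or the prefix as a block (13.4%). It was also 0 with the 4 WT hearts of high atrial markers left out (11%). It was 2 with age as a covariate (15.7%) and with the prefix block without replicate 11 (19.5%). With the 4 WT hearts and replicate 11 left out it was 2 (16.8%), and with array weights 3 (20.3%). Leaving out 1 heart at a time gave 0 to 3, beside 12.6% to 19%. In KO low EF against KO high EF, median scaling gave 0 in place of 1, beside 0.0708% in place of 2.92% of all kept probes. Leaving out 1 heart gave 1 to 2 (2 without KO high EF replicate 7). For the EF slope, 1 in place of 0 was called without normexp correction, on the authors' values, with a stricter filter and with array weights. Over all 25425 probes, 409 slopes rose and 201 fell without normexp correction, and 446 and 219 on the authors' values, against 339 and 168. Leaving out 1 heart gave 0 to 1. For those settings the cause was not tested. Called values changed sign in 2 cases: Scn4a in KO high EF against WT within prefix 055 (0.15) and Scn4b in KO low EF against KO high EF within prefix 046 (0.32). Over all settings, single-probe calls were lost 30 times and gained 54 times. Median scaling changed the split of calls in KO low EF against WT to 3026 higher and 1537 lower, against 3069 and 3136, while moving the median of all probes by under 0.1. Over all probes it left 12 higher and 6 lower in KO low EF against KO high EF, against 237 and 506, and 0 slopes on EF, against 339 rising and 168 falling.

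Hearts of different groups shared replicate numbers, and the correlations of same-numbered hearts ran from -0.01 to 0.18. Hearts of different numbers were not correlated for reference, so these values do not decide whether the numbers paired hearts. Fits with the replicate block used only hearts whose number occurred in both groups. In KO low EF against WT 8 member probes were then called, beside 27.6% of all kept probes. The same hearts with no block gave 7, beside 28.1%. In KO high EF against WT the block gave 0, beside 1.06%, and no block gave 0, beside 3.33%.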

Other observations

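Of 14 tested transcription factors and corepressors of the embryonic channel programme, 3 were lower and 0 higher in KO low EF than in WT hearts, with a median difference of -0.16, beside 1844 lower and 2082 higher of all 13683 genes. Without KO high EF replicate 11, 5 were lower, beside 2522 of 13563 genes, and without the 4 WT hearts of high atrial markers 2 were lower, beside 1581 of 13411 genes. The 3 lower ones over all hearts were Hdac4, a histone deacetylase that restrains MEF2 (-0.75 ± 0.14, limma adjusted p = 0.000238), Irx5, a factor of the ventricular potassium current gradient (-0.52 ± 0.14, adjusted p = 0.00633), and Tbx5, a factor of conduction tissue (-0.46 ± 0.13, adjusted p = 0.0122). Which factors were lower without the 4 WT hearts is not given here, and the part of atrial tissue in these differences was not tested. Hdac4 was also lower in KO high EF than in WT hearts (-0.56 ± 0.14, limma adjusted p = 0.00592). Gja5, a connexin of the atria and the conduction tissue, was higher in KO low EF than in WT hearts (0.47 ± 0.11, adjusted p = 0.00305), and Irx3, a factor of the fast conduction tissue, was lower (-0.50 ± 0.14, adjusted p = 0.00764).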
